A study of Mus musculus with 2 samples.

Results

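The genes described here are the annotated small nucleolar RNA (snoRNA) genes of the mouse, taken as every gene whose symbol begins with Snord or Snora. The rule found 141 genes among the 55536 genes of the gene tables. Of these, 99 were Snord genes, which are the C/D class, and 42 were Snora genes, which are the H/ACA class. Each gene had 1 transcript, and the 141 identifiers carried 138 distinct symbols, because Snord80, Snora43 and Snora16a each stood for 2 overlapping entries. The annotation gave the biotype snoRNA to 140 of them and miRNA to Snord43. A further 1367 genes of biotype snoRNA had other symbols and were not counted as members.

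Total RNA was sequenced from B6CASTF1/J males, with the left cerebral cortex as the tissue. The strain is a first-generation hybrid of the C57BL/6 and CAST strains, and the mice were 14 days old, with no treatment named. The series held 2 libraries of this 1 group, each made from 300 ng of RNA, with ERCC spike-ins of a profile meant for stranded libraries depleted of ribosomal RNA. The labels called them biological replicates 1 and 2 of separate biosamples, gave 1 donor entry for both, and named 3 males without saying whether tissue was pooled, so the spread between the libraries may be technical. With 1 group there was no comparison of conditions and no p-value. Depth was 28263266 expected counts over annotated genes in replicate 1 and 30862848 in replicate 2. The cortical markers fixed for the tissue were found at a level of at least 1 TPM, a length-scaled share of all transcripts, in both libraries for 7 of 7 genes, and the cerebellar markers for 0 of 5. Striatal markers were present in 10 of 11 cases and summed to 607 TPM in replicate 1 and 172 TPM in replicate 2, lower in replicate 2 for 11 of 11. Haemoglobin genes, which mark blood, summed to 810 TPM in replicate 1 and 1259 TPM in replicate 2.

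snoRNAs are short nucleolar RNAs that guide chemical changes in ribosomal RNA. C/D snoRNAs carry a C box near the 5′ end and a D box near the 3′ end and direct ribose methylation with the methyltransferase fibrillarin. H/ACA snoRNAs fold into hairpins, end in an ACA box and direct pseudouridylation with the enzyme dyskerin. A few members of each class are needed for cleavage of the ribosomal RNA precursor rather than for its modification. Most vertebrate snoRNAs are released from the introns of a host gene, and several imprinted loci hold arrays of C/D snoRNAs that are known for their expression in the brain.

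The sequences below are of genes described with their values further on, from GENCODE M21 transcripts on mm10, written 5′ to 3′. Capitals mark the C box (NTGATGA in the first 20 nt) and the D box (CTGA in the last 20 nt) of C/D genes, or ACA in the last 6 nt of H/ACA genes. The near-identical pair Snora73a (chr4:132352775-132352979, minus strand) and Snora73b (chr4:132352322-132352526, minus strand) ranked next after Snora74a in level, and their 205 aligned positions differed at 7.
Snora73a: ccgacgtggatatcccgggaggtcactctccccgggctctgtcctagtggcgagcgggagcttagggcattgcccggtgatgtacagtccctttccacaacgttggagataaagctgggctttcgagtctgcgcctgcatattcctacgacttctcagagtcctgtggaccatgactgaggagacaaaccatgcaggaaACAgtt
Snora73b: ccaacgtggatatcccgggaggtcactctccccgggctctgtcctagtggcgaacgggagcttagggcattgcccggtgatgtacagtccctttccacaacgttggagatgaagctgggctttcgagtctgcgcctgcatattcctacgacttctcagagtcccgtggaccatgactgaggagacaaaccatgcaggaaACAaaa

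The next 5 sequences are the detected C/D genes, by the rule given below. They lay at chr2:144265979-144266216 (minus strand, Snord17), chr7:99482785-99482932 (minus strand, Snord15a), chr7:99479563-99479707 (minus strand, Snord15b), chr19:8725866-8725991 (plus strand, Snord22) and chr11:69073427-69073561 (plus strand, Snord118). Snord15a and Snord15b were identical at 66.0% of aligned positions, against 96.6% for the Snora73 pair.
Snord17: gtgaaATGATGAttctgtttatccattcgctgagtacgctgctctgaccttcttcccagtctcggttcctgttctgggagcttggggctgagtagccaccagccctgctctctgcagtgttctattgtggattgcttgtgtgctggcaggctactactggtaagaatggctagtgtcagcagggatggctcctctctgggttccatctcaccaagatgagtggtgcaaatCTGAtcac
Snord15a: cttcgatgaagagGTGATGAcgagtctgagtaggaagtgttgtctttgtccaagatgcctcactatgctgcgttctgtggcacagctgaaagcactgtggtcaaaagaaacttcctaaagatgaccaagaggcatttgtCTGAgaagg
Snord15b: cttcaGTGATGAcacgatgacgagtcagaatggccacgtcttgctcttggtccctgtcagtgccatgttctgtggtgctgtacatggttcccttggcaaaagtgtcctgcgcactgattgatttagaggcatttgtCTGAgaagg
Snord22: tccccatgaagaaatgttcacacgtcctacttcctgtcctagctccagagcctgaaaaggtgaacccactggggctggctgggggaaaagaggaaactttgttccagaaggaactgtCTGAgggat
Snord118: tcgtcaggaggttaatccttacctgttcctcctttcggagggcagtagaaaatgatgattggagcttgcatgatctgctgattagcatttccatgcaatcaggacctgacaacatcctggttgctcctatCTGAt

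Snora44 (chr4:132309941-132310069, plus strand) is printed because its level differed most between the libraries among the 13 members that reached 10 counts in either. No ACA was found in the last 6 nt of Snora44.
Snora44: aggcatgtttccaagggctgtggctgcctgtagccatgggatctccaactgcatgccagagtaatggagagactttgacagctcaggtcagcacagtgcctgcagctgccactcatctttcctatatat

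Snord116l1 (chr7:59894620-59894713, minus strand) and Snord47 (chr1:161038082-161038158, plus strand) stand for the C/D genes that the gene tables could not measure, as described below. The first is 1 of 17 Snord116 copies, and the second lies in Gas5.
Snord116l1: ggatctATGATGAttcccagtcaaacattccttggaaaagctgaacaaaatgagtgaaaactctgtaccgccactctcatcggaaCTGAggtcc
Snord47: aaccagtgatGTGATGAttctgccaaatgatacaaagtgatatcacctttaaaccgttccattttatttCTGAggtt

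The boxes followed the class names. A D box was found in 97 of 99 C/D genes (98.0%) and a C box in 69 (69.7%), with both in 68 (68.7%). Among 6855 other transcripts of 60 to 250 nt, a D box was found in 8.99%, a C box in 0.569% and both in 0.0729%. ACA stood in the last 6 nt of 39 of 42 H/ACA genes (92.9%), of 5.05% of C/D genes and of 7.47% of the other transcripts. No H/ACA gene had a C box in the first 20 nt, and 5 of 42 (11.9%) had CTGA in the last 20 nt. The C box was not matched in Snord22, Snord118, Snord13 or Snord43, which says only that these letters were not in that window.

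Length split the classes. The C/D genes had a median length of 84 nt, from 64 to 238 nt, and the H/ACA genes a median of 132.5 nt, from 121 to 205 nt. In the gene tables the effective length, meaning the number of positions at which a read could start, was the length less 99 nt in all 34552 genes with 1 transcript, in both libraries, and 0 below 100 nt. All 28583 entries under 100 nt, entries that are not genes included, had 0 expected counts in both libraries. Of the 141 snoRNA genes, 87 were under 100 nt, and all 87 were C/D genes. Their value of 0 is therefore a property of the tables and gives no level. The longest of them was Snord16a at 99 nt, and the shortest gene above the limit was Snord13 at 104 nt. The 54 genes that could take a count were 12 C/D and 42 H/ACA genes.

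**Figure D1:**
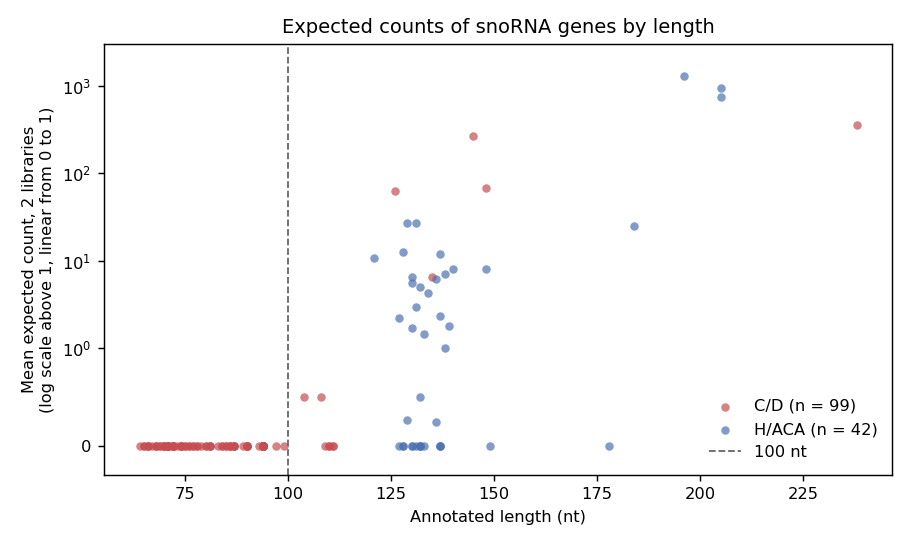
Expected count (mean of the 2 libraries, log scale above 1 and linear from 0 to 1) against annotated length in nt for the 99 C/D and 42 H/ACA snoRNA genes. All 87 genes left of the dashed line at 100 nt, all of them C/D, sit at 0, and the 4 genes of 196 nt or more hold 354 to 1280 counts.

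A gene was called detected when its TPM, the level per length, was at least 1 in both libraries. By this rule 26 of 141 snoRNA genes (18.4%) were detected, against 27.1% of all 55536 genes. The count was 26 of 54 (48.1%) among those of at least 100 nt, beside 4.48% of all genes of 100 to 238 nt and 6.02% of the 996 other snoRNA-biotype genes of at least 100 nt. For 11 of the 26, every stretch of 100 nt was also in another gene, so reads of both cannot be told apart. By class, 5 of 99 C/D and 21 of 42 H/ACA genes were detected, and 5 of the 12 C/D genes of at least 100 nt. Because these genes are short, the rule is a loose one: 1 count was worth 0.379 TPM for Snord17 and 10.5 TPM for Snord13 in replicate 1, and at least 1 TPM in both libraries for 47 of the 54 genes. At least 10 expected counts in both libraries were reached by 12 snoRNA genes, 4 C/D and 8 H/ACA, which is 22.2% of the 54, beside 2.18% of all genes of 100 to 238 nt and 32.0% of all genes. Any count in at least 1 library was found for 34 of the 54, 7 C/D and 27 H/ACA, beside 11.3% of genes of 100 to 238 nt and 51.3% of all genes.

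**Figure D2:**
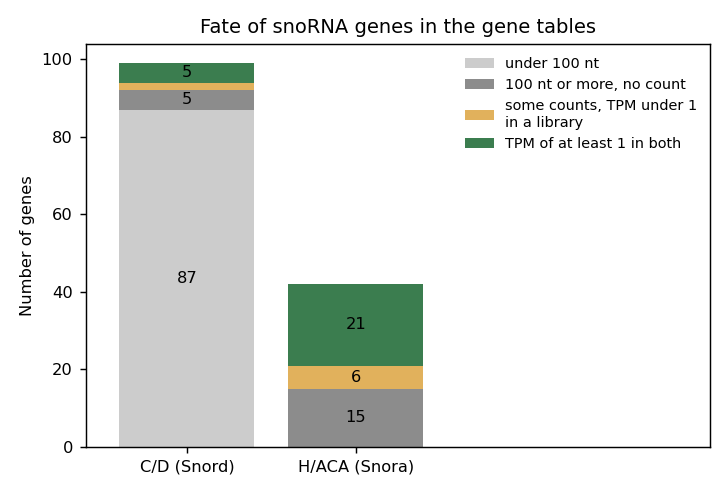
Number of snoRNA genes by class and by status in the gene tables: under 100 nt, no count, some counts but a TPM under 1 in a library, or TPM of at least 1 in both. The C/D bar is 87 unmeasurable genes, 5 with no count, 2 with some counts and 5 detected, while the H/ACA bar has no unmeasurable gene and is 15, 6 and 21.

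Taken by length, all 4 C/D genes of 120 to 150 nt were detected, against 17 of 37 H/ACA genes of that length. Among the 7 C/D genes of 100 to 119 nt, 2 had a count in 1 library and none was detected, and no H/ACA gene was that short. Above 150 nt, 1 of 1 C/D and 4 of 5 H/ACA genes were detected. The exception was Snora81, of 178 nt, which was listed at 0 in both libraries. Its host Eif4a2, a translation initiation helicase, stood at 349 and 346 TPM. All 79 stretches of 100 nt in Snora81 were also in Eif4a2, so reads of the host cannot be told apart from reads of the snoRNA.

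All snoRNA genes together took 3895 expected counts in replicate 1 and 3929 in replicate 2. As a share of gene counts this was 0.0138% (0.0134% to 0.0142%) for replicate 1 and 0.0127% (0.0123% to 0.0131%) for replicate 2, with 95% Wilson intervals. The intervals cover counting error only, since reads without molecular identifiers are not independent molecules. C/D genes took 0.00294% and 0.00223% of gene counts, and H/ACA genes 0.0108% and 0.0105%. Within the snoRNA counts, 3 H/ACA genes, Snora74a, Snora73b and Snora73a, held 73.5% in replicate 1 and 78.4% in replicate 2. The summed level of the snoRNA genes was thus set by very few of them. The other snoRNA-biotype genes took 0.0267% and 0.0234% of gene counts, and the 9 scaRNA genes, which guide modification of spliceosomal RNAs in Cajal bodies, took 0.0228% and 0.0211%. Scarna9 and Scarna10 have the biotype snoRNA and count in both of these sets.

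Of the H/ACA class, Snora74a, also known as U19, had the highest level, with 1203.82 and 1356.62 expected counts in replicates 1 and 2, or 653 and 690 TPM. Its credibility interval, the range the quantifier gives for the TPM, was 595 to 667 in replicate 1 and 632 to 702 in replicate 2, so the libraries overlapped. All 97 of its windows of 100 nt were also found in a transcript of its host AC121821.1, so reads of that transcript cannot be told apart from reads of the snoRNA. The host stood at 8.83 and 8.69 TPM, so the snoRNA was listed 74.01 and 79.3 times higher.

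Snora73b and Snora73a, copies of U17, which acts in precursor cleavage for the small ribosomal subunit, came next. Snora73b had 957.69 and 951.75 expected counts, or 476 and 443 TPM. Snora73a had 702.83 and 771.93 expected counts, or 349 and 359 TPM. Snora73b stood above Snora73a in both libraries, by a factor of 1.36 in replicate 1 and 1.23 in replicate 2, and their credibility intervals did not overlap in either (430 to 489 against 311 to 363 TPM, then 401 to 456 against 323 to 373 TPM). The copies lie in Snhg3, a non-coding host at 13.7 and 12.7 TPM, and exceeded it 34.8-fold and 34.7-fold for Snora73b and 25.6-fold and 28.2-fold for Snora73a. A Snhg3 transcript contained 60 of the 106 windows of Snora73a and none of Snora73b. On the opposite strand Gm17300 covered 76 windows of Snora73a and all 106 of Snora73b, and it held 0 and 1 counts itself.

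The remaining H/ACA genes were far lower. Snora44 had 37.65 and 16.78 expected counts, or 66.1 and 27.6 TPM, and all 30 of its windows were also in its host Snhg12 (17.0 and 17.8 TPM). Snora68 had 33.17 and 20.56 counts, or 54.6 and 31.7 TPM. Both were thus higher in replicate 1, and neither had a window of its own.

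Snora23, in the nuclear import receptor gene Ipo7, had 26 and 24 counts, or 16.1 and 13.9 TPM. No window of Snora23 was in an annotated transcript of another gene. Snora78, in Snhg9, had 15 and 10 counts, or 27.2 and 17.0 TPM. Snora21, in the ribosomal protein gene Rpl23, had 10 and 14 counts, or 13.9 and 18.2 TPM. These 3 genes were at similar levels, with credibility intervals that overlapped between the libraries and with each other.

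A further 13 H/ACA genes passed TPM 1 with fewer than 10 counts in a library, among them Snora26 in Dancr, with 9.62 and 11.65 counts (23.0 and 26.1 TPM). Together with the C/D gene Snord118, these 14 genes had mean TPM from 1.31 to 24.6. At the lower end, Snora47 was called on 1 count in each library, so the order of neighbouring genes is not resolved. Every window of Snora24, Snora26, Snora61, Snora64, Snora70 and Snora7a was also in the host. Reads of that host cannot be told apart from theirs, so presence of these snoRNAs was not shown. The other calls are at most of presence. Another 8 genes had some counts and missed the rule, with mean TPM from 0.345 to 4.93. Just inside the rule lay Snora47, at 1.35 and 1.26 TPM, and just outside it Snora9, at 0.69 and 3.54 TPM, and the Snora43 entry of 127 nt, at 7.52 and 0.76 TPM. The overlapping Snora43 entry of 139 nt had 0 and 4.40 TPM, so the entries missed the rule singly, while together they held 4 counts in each library, or 7.52 and 5.16 TPM.

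Among C/D genes, Snord15b and Snord15a are copies of U15, a methylation guide for the large-subunit ribosomal RNA, and both lie in Rps3, which encodes a protein of the small ribosomal subunit. Snord15b had 292.15 and 245.22 expected counts, or 334 and 263 TPM. Snord15a had 72 and 63 counts, or 77.4 and 63.4 TPM. Snord15b was thus 4.32-fold and 4.15-fold above Snord15a in the 2 libraries, although they share a host at 93.5 and 107 TPM. The windows differed: all 46 of Snord15b were also in an Rps3 transcript. None of the 49 of Snord15a was found in an annotated transcript of another gene. Reads of the Rps3 transcript that holds Snord15b cannot be told apart from reads of the snoRNA.

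Snord17, in the sorting nexin gene Snx5, was the longest snoRNA gene at 238 nt and had 393 and 315 counts, or 149 and 112 TPM. None of its 139 windows occurred in an annotated transcript of another gene. Unspliced Snx5 RNA was not searched, and reads of it cannot be told apart from reads of the snoRNA. Snord17 stood 4.71-fold and 3.64-fold above Snx5 (31.6 and 30.7 TPM). Snord22, or U22, which acts in the maturation of the small-subunit ribosomal RNA, had 67.26 and 57.22 counts, or 131 and 104 TPM. Its 27 windows were all also in Snhg1 (10.26 and 10.02 TPM), over which it stood 12.8-fold and 10.4-fold.

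Snord118, or U8, which is needed for maturation of the large-subunit ribosomal RNA, had 5 and 8 counts, or 7.31 and 10.96 TPM, with no window in another gene and no host. The other C/D genes with any count were Snord13 (U13), with 0 and 1 counts, and Snord43, with 1 and 0. These last 2 values are single reads, and they are shown because 1 read of Snord13 was listed as 9.86 TPM.

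**Figure D3:**
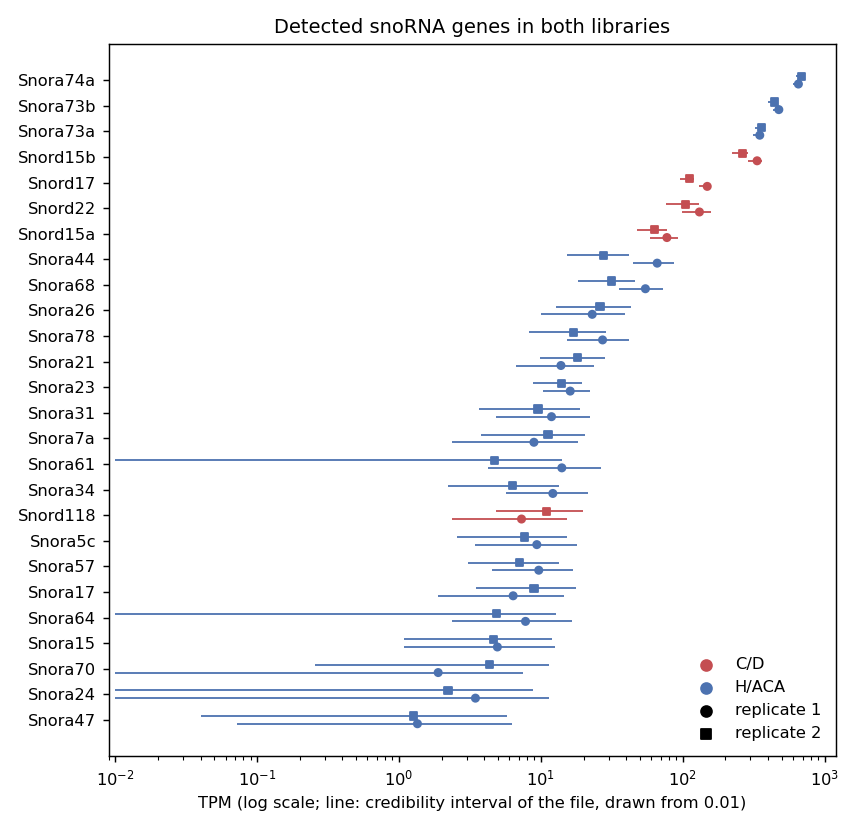
TPM (log scale) of the 26 detected snoRNA genes in replicate 1 (circles) and replicate 2 (squares), C/D in red and H/ACA in blue, with the deposited credibility interval as a line (drawn from 0.01 where its lower bound is smaller). Intervals narrow towards the top, where Snora74a lies at 653 and 690 TPM, and 4 of the 7 highest genes are C/D.

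The credibility intervals showed how far these levels could be resolved. Relative to TPM, the narrowest among the 12 genes that reached 10 counts in each library were those of Snora74a (10.9% and 10.2% of TPM), Snora73b (12.4% and 12.5%) and Snora73a (14.7% and 14.0%). By the mean of both libraries, the widest were those of Snora21 (122% and 103%), Snora78 (98.4% and 121%) and Snora44 (63.1% and 97.6%). The levels of Snora21, Snora78 and Snora23 could not be ordered within these errors.

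Over the detected genes, the median of the mean TPM was 118 for the 5 C/D genes and 10.1 for the 21 H/ACA genes. These medians are the values of Snord22 and Snora7a, and every window of both was also in the host. On the log2(TPM + 0.1) scale the medians differed by 3.53, and by 3.42 in replicate 1 and 3.44 in replicate 2 (SD 0.0125, n = 2). This is a description of 5 against 21 genes, which are not replicates. Among genes of 120 to 150 nt, where the classes overlap in length, the difference was 3.29 with 4 C/D and 17 H/ACA genes (medians 94.1 and 9.24 TPM). It was 2.70 with the 3 C/D and 9 H/ACA genes that have no window in another gene, a set chosen after the values were seen, and 1.46 with the 4 and 8 genes of at least 10 counts. C/D genes had the higher median in each of these subsets of detected genes, and the 3 highest single genes were H/ACA. Over all 54 genes of at least 100 nt, detected or not, the difference was 0.59 on the mean TPM but -1.14 in replicate 1 and -1.54 in replicate 2 alone. The medians of TPM itself were 2.925 and 4.93 for C/D against 1.62 and 2.88 for H/ACA in replicates 1 and 2. The sign in a single library thus depended on the scale, so no direction held there. Over all 141 genes, with the unmeasurable ones at 0, the sign turned and the difference was -4.70.

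By role, the 9 fixed members that act in ribosomal RNA processing were Snora73a, Snora73b, Snord118, Snord13, Snord22 and 4 copies of Snord14 (U14). Of these, 4 were detected, 1 (Snord13) had a single count and the 4 Snord14 genes were under 100 nt. Together they held 1733 and 1790 counts, nearly all from the Snora73 pair. U3, an abundant processing snoRNA, is named Rnu3 in this annotation and falls outside the symbol rule. Its 10 entries summed to 1243 and 995 TPM. The Rnu3b entries had fractional counts in both libraries and the Rnu3a entries in replicate 2, so reads were divided between entries by the quantifier.

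The imprinted Snrpn-Ube3a domain, known for brain-expressed C/D snoRNAs, gave 19 members: 17 copies of Snord116, all 94 nt long, with Snord64 and Snord107. All 19 were under 100 nt and had 0 counts in both libraries, so no level can be given for the locus from its snoRNAs. The 17 copies held 4 distinct sequences, of which 1 was shared by 14 genes. Their host Snhg14 was at 645 and 598 TPM, and Gm38393, the span that holds Snord64 and Snord107, at 33.2 and 36.9 TPM. No gene carried a symbol of the Dlk1-Meg3 arrays (Snord113 or Snord114), while Rian, a non-coding transcript of that domain, stood at 723 and 746 TPM. Gas5, a growth-arrest transcript whose introns carry C/D snoRNAs, held 4 members, all under 100 nt, and was itself at 57.5 and 60.3 TPM.

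Host genes were assigned by position, as a gene of the same strand whose span contains the snoRNA. Of the 141 members, 134 lay in a host, and 11 lay in more than 1, for which the host with the highest mean TPM was taken. So chosen, the hosts numbered 83, and 83 members lay in protein-coding ones. With every containing gene counted there were 89 hosts, and 86 members lay in a protein-coding one. The 7 without a host were both Snora43 entries, Snord118, Snord104, Snora57, Snora17 and Snord13. Ribosomal protein genes were a large group, with 24 Rpl or Rps hosts holding 33 members, of which 19 were under 100 nt and 7 were detected. All 24 had a TPM of at least 1 in both libraries, with a median of 164 TPM.

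Hosts were expressed where the snoRNAs could not be measured. Among the 86 members under 100 nt with a host, 85 lay in a host with a TPM of at least 1 in both libraries, and the median host level was 94.7 TPM. Hspa8, a constitutive chaperone that carries 3 copies of Snord14, stood at 1008 and 1073 TPM. Rpl13a, with Snord32a, Snord33, Snord34 and Snord35a, was at 305 and 277 TPM. A host's level is that of its own annotated transcripts and is no measure of the snoRNA.

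For the 48 members of at least 100 nt with a host, the levels of snoRNA and host were weakly related across genes, with a Spearman rho of -0.21 over 42 hosts (Pearson's r of -0.17 on the log2 scale). Among the 23 detected ones the rho was -0.20 over 20 hosts. Both values come from the same libraries, hosts shared by several snoRNAs are not independent, and the lengths differ greatly, so the coefficients are given as a description. The snoRNA exceeded its host in mean TPM in 9 cases: Snora73a, Snora73b, Snora74a, Snora44, Snora78, Snora26, Snord15b, Snord22 and Snord17. Every window of Snora74a, Snora44, Snora26, Snord15b and Snord22, and 60 of 106 of Snora73a, was also in the host. Their excess therefore depends on how the quantifier divided reads between snoRNA and host. The chosen host was a non-coding transcript in 7 of the 9 cases, the exceptions being Rps3 and Snx5. Among all their hosts, 5 of the 9 had a protein-coding gene. Beside this, the chosen host was protein-coding for 83 of the 134 members with a host, and for 26 of the 38 H/ACA ones. A link between host type and excess was not tested.

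**Figure D4:**
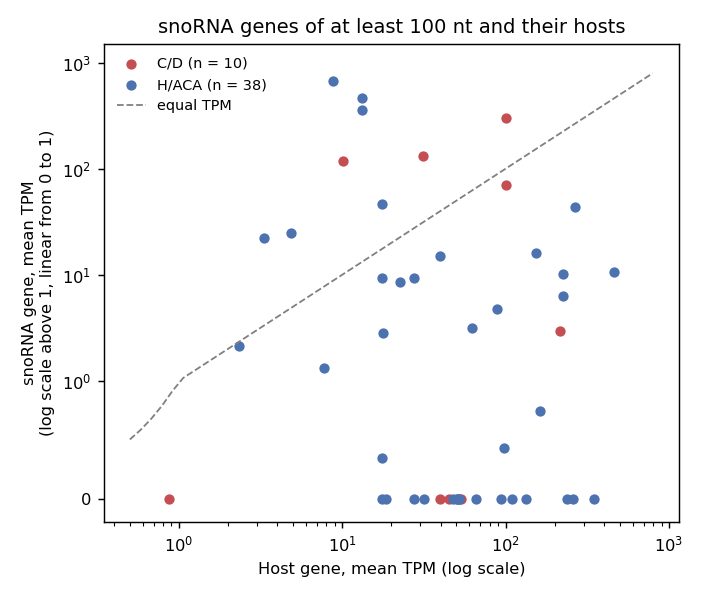
Mean TPM of each snoRNA gene of at least 100 nt (log scale above 1, linear from 0 to 1) against the mean TPM of its host (log scale), for 10 C/D and 38 H/ACA genes. The dashed line marks equal TPM: 9 points lie above it, and 20 lie at 0 under hosts that range from 0.87 to 348 TPM.

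The 20 members of at least 100 nt without a count were 5 C/D and 15 H/ACA genes. For the 12 with no window in another gene, a count of 0 allows up to 3 counts, which was 3.16 to 15.8 TPM in replicate 1 and 2.96 to 14.8 TPM in replicate 2, counting error only. For the other 8 every window was shared with another gene, so reads from them cannot be told apart from those of that gene, and the upper credibility bounds were 3.68 to 12.5 TPM and 3.55 to 10.5 TPM. Detected genes such as Snora31, at 11.9 and 9.54 TPM, fall within these ranges, so absence was not shown. All 20 had a host, with a median of 51.1 TPM.

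Shared sequence was common among the 54 measurable genes. No window of 100 nt was found in another gene for 27 of them, every window was for 23, and some windows were for 4. By class, 10 of 12 C/D genes and 17 of 42 H/ACA genes had no shared window. Of the 26 detected genes, 12 had no shared window, 3 had some and 11 had every window shared. For those 11, reads of the other gene cannot be told apart from reads of the snoRNA. Expected counts showed the division: 12 of the 26 detected genes had whole counts in both libraries, and 11 of these 12 had no shared window, while 13 of the 14 with fractional counts had one. The last of the 14, Snora73b, had windows on the opposite strand of Gm17300 only, and Gm17300 held whole counts (0 and 1). The search took exact matches only. It therefore could not see reads divided with the near-identical Snora73a, which has 7 mismatches to Snora73b in 205 positions. The search also took annotated transcripts only. Unspliced host RNA that spans a snoRNA was thus not seen as shared sequence, also for genes with no shared window. Whether strand was used in counting is not given in the sources used here.

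Differences between the libraries were taken as log2 CPM, counts scaled to library size over all genes, replicate 2 minus replicate 1. They were taken for the 13 members that reached 10 counts in either library. The median was -0.28, with 9 of 13 lower in replicate 2, beside 49.9% of the 18965 genes compared. All 4 C/D genes were lower in replicate 2, from -0.42 to -0.28, and 5 of 9 H/ACA genes were, from -1.16 to 0.33. Snora44 was the 1 member past 2-fold, at -1.16 (95% counting interval -2.18 to -0.40), beside 3.94% of all genes in either direction and 2.49% lower in replicate 2.

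The counting interval also left out 0 for Snord17, at -0.42 (-0.64 to -0.20), and for Snord15b, at -0.35 (-0.60 to -0.10). Every window of Snora44 and of Snord15b was also in the host, and the interval leaves out error in dividing such reads. For the other 10 members the interval held 0, among them Snora74a (0.07, from -0.04 to 0.19) and Snora73a (0.04, from -0.11 to 0.19). With 2 libraries of 1 group there is no test of these differences. Striatal markers moved the same way, 607 TPM against 172 TPM in all, and haemoglobin genes the other way, and the part of tissue or cell content in the snoRNA differences was not tested. In bulk tissue, fewer cells of a type and less RNA per cell cannot be told apart.

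**Figure D5:**
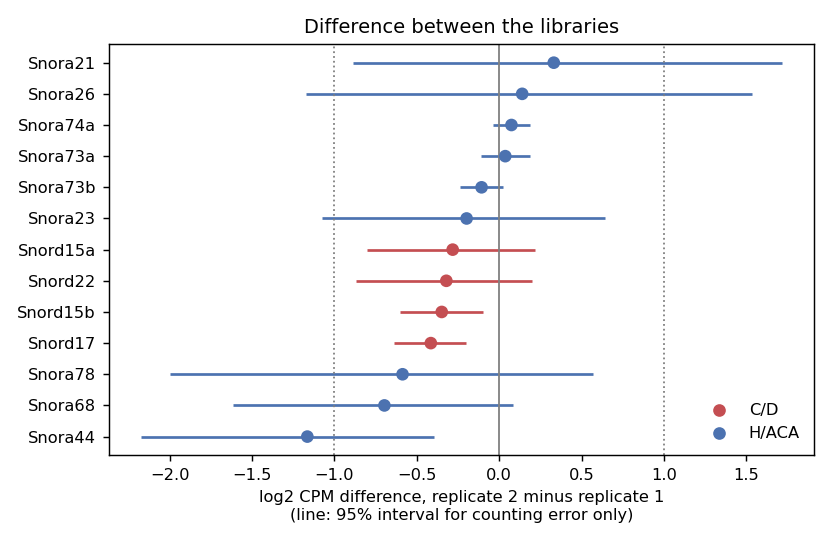
Difference between the libraries in log2 CPM (replicate 2 minus replicate 1) for the 13 snoRNA genes that reached 10 counts in either library, with 95% intervals for counting error only. The 4 C/D genes (red) lie between -0.42 and -0.28, and Snora44 at -1.16 is the only point past the dotted lines at a 2-fold difference.

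Transcripts of the proteins that snoRNAs work with were read from fixed lists, beside 27.1% of all genes detected by the same rule. Those of the 4 C/D core proteins were detected, with the methyltransferase Fbl at 26.6 TPM (mean of the libraries), its scaffold partners Nop56 and Nop58 at 58.5 and 24.0 TPM, and the kink-turn binding protein Snu13 at 43.3 TPM. Those of the 4 H/ACA core proteins were detected too, with the pseudouridine synthase Dkc1 at 11.1 TPM, Gar1 at 19.4, Nhp2 at 22.01 and Nop10 at 33.2 TPM. The lists summed to 154.2 and 150.8 TPM for C/D, and to 88.8 and 82.5 TPM for H/ACA. Transcripts of all 12 assembly factors, among them the Ruvbl1 and Ruvbl2 ATPases and the cap methylase Tgs1, were detected with a median of 10.8 TPM, and all 4 U3 proteins with a median of 14.9 TPM. Of 15 hosts fixed as non-coding, 14 were found in the annotation and all 14 were detected, though the annotation gives 1 of them, Snhg11, as protein-coding.

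Of the scaRNA genes, which carry C/D or H/ACA boxes or both, 6 of 9 were detected. Scarna2 stood at 544 and 471 TPM and Scarna10 at 506 and 547 TPM, levels near those of the Snora73 pair. Scarna9 and Scarna17, at 70 and 79 nt, were listed at 0, as were the snoRNA genes of that length.

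The second transcript table, made directly from the reads, listed 0 estimated counts for all 141 snoRNA transcripts in both libraries. It gave them effective lengths of 23.6 to 53.8 nt in replicate 1 and 22.7 to 51.3 nt in replicate 2. The zeros reached beyond the snoRNAs: 0 of 5830 transcripts of 100 to 238 nt had a count in either library, whereas 20.5% and 23.3% of the 22162 transcripts of 239 to 500 nt did. Snora74a, with 1203.82 and 1356.62 counts in the gene tables, was thus listed at 0 here, and the table gives no level for any snoRNA gene.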

How the data were processed

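Total RNA was measured in 2 libraries of 1 group. The description file of each sample says that gene tables came from alignments to the transcriptome (GENCODE M21, mm10), and their column names are those that RSEM writes. The deposited expected counts are estimated reads per gene, not normalized, and the deposited TPM is scaled over every entry of the table, with spike-ins among them. The credibility bounds of TPM are used as the authors deposited them, as a signal on the TPM scale, and the deposited score for the spread of the posterior count was not used. A second deposited transcript table, derived directly from the reads, gives estimated counts and TPM under column names that kallisto writes. The strand setting, like the aligner, the quantifiers and their versions, is not given in the sources used here. The first transcript table was not used, since each member has 1 transcript.

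Members were found by symbol, and all 141 matched a gene and a GENCODE M21 sequence. Spike-ins and entries that are not genes were left out of totals. A gene was called detected at TPM of at least 1 in both libraries, and class medians used a pseudocount of 0.1. Differences between libraries came from expected counts rounded to whole numbers, as log2 CPM with TMM factors (1.01 and 0.990) in edgeR 4.0.16 (R 4.3.3), the prior count being 2, over genes that reached 10 counts in either library. Factors from DESeq2 1.42.0 were an alternative. On simulated counts with known fold changes, set in genes of more than 50 counts on average, this step recovered them. Changes at lower counts, such as those of Snora44, and reads shared with a host were not simulated. Floors of 3 counts are 0.106 and 0.0972 CPM. Intervals are 95% Wilson, or exact binomial for differences. Windows of 100 nt were searched in the annotated transcripts of all other genes, not in unspliced RNA. Other steps ran in Python 3.11.15, with pandas 2.3.3, numpy 2.4.6 and scipy 1.17.1.

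The members and lists were chosen with earlier results of these data known. Genes named with values are the highest members of each class by TPM and by count, those with the largest difference between libraries, those with the widest and narrowest credibility intervals, the fixed groups and lists, and hosts; others named singly were chosen after their values were seen. Alternatives were other detection thresholds, the posterior mean counts, the second table, other scalings, filters and prior counts, and each library left out. The name and values of 1 host gene are not reported here.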

Additional observations from a re-analysis of the deposited data

How the results depend on the processing

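Recomputed counts were held to 1.5 times the main count, and other values to the spread between the libraries or the counting error. By that measure 33 values stayed, 20 moved and 1 reversed. The count of detected members (26; C/D 5, H/ACA 21) was 13 at TPM of at least 10 and 12 at 10 counts in both libraries, with H/ACA at 9 and 8. In the second table it was 0, with C/D 0 and H/ACA 0, and the shares of gene counts were 0% for all members, C/D and H/ACA. The class difference of 3.53 was 3.42 with a pseudocount of 1, 1.46 with at least 10 counts, 2.93 on log2(expected count + 1), 3.29 at 120 to 150 nt, 2.70 without shared windows and 0.59 over all members of at least 100 nt (both chosen after seeing the data) and 3.42 to 3.44 with 1 library left out. It reversed to -4.70 over all members, because the 87 C/D genes under 100 nt are at 0. Members past 2-fold between libraries numbered 0 with at least 50 counts, which leaves out Snora44, and 4 with no filter on counts. The median difference of -0.28 lay between -0.31 and -0.27 under other scalings, prior counts and counts, and was 0 with no filter. No paired analysis was possible because there is only 1 group. Depth limits the low members: 22 of the 34 with any count had fewer than 10 counts in a library.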
